A study of Homo sapiens with 12 samples.

Results

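AQP3 and TNC are 2 protein-coding genes out of 27146 in the tables of this series. They were chosen by symbol because their deposited fold changes had opposite signs with a6 and with SAHA, lower with a6 and higher with SAHA. The cells, MDA-MB-231, are a human cell line from a triple-negative breast cancer. The 4 groups of 3 libraries each, 12 in all, were cells given a6, SAHA or compound 1, each at 2.5 µM, and Ctrl cells given DMSO, the solvent, all for 48 h. SAHA, also called vorinostat, blocks histone deacetylases (HDACs), the enzymes that take acetyl groups off histones. The labels describe SAHA and compound 1 as having a single target and a6 as having a pair, which the series title gives as HDACs and G-quadruplexes (G4s). A G4 is a folded structure that guanine-rich nucleic acid can form. The labels do not give the target of compound 1. No structure is given here for compound 1 or a6. All groups are 1 cell line. In the sample titles the libraries are numbered as biological replicates, with no word on whether they came from separate cultures, so the errors and p-values describe only how far these libraries differ, and some of that may be technical.

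AQP3 encodes aquaporin 3, an aquaglyceroporin of the plasma membrane. It is a channel that lets water and glycerol, and also hydrogen peroxide, cross the membrane, and it is best known in skin keratinocytes and kidney collecting duct. TNC encodes tenascin-C, a large secreted glycoprotein of the extracellular matrix. Tenascin-C assembles from identical subunits into a star-shaped hexamer, binds fibronectin, integrins and other receptors, and is abundant in developing tissue, wounds and the stroma of many solid tumours. Histone acetylation generally goes with open, transcribed chromatin. HDAC inhibitors raise some genes and lower others.

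Both genes lie on the minus strand of chromosome 9, one on each arm. In GENCODE 29 on GRCh38, AQP3 (ENSG00000165272.15) spans 33441154 to 33447633 and TNC (ENSG00000041982.15) spans 115019578 to 115118257, with their lower ends 81.6 Mb apart. The merged exons of AQP3 add up to 2950 bases over 7 annotated transcripts, and those of TNC to 9636 bases over 14. No other annotated gene overlaps AQP3. DEC1, on the plus strand, overlaps TNC. The tables used here have no row under the symbol DEC1, and other symbols for it were not looked up. The sources used here do not say whether counting used strand.

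The bases before each start are shown because the series title names G4s as a target. They are the 250 bases upstream of the RefSeq start on GRCh38.p14, 5′ to 3′ on the minus strand, chr9:33447594-33447843 for AQP3 and chr9:115118158-115118407 for TNC. Capitals mark matches on the gene's own strand to 4 runs of GGG with 1 to 7 bases between them, a common G4 pattern, and to TATANA, the core of the promoter box bound by TBP.
AQP3: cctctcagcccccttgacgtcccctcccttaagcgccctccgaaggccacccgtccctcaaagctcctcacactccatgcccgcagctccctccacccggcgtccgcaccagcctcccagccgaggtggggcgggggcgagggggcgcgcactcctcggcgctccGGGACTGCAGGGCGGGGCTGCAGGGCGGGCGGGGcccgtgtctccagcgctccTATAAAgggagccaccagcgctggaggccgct
TNC: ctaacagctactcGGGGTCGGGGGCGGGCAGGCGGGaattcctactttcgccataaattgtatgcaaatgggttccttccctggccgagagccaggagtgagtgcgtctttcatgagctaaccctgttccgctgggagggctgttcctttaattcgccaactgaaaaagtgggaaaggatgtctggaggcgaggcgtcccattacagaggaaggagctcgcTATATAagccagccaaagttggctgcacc
The G4 pattern lay 85 to 52 bases before the start in AQP3 and 237 to 215 bases before it in TNC. AQP3 also held it on the other strand, as runs of CCC, at 240 to 213 bases. On either strand the pattern occurred in 23.3% of 35116 RefSeq windows of the same length, coding and noncoding genes together. TATANA lay 32 to 27 bases before the start in AQP3, as TATAAA, and 29 to 24 bases before it in TNC, as TATATA, which reads the same on both strands. That string occurred in 17.7% of the windows on either strand. GGGCGG, the core of the GC box bound by Sp1-type factors, occurred at 4 places in AQP3 and 1 in TNC, overlapping the G4 match at 3 and at 1 of them, and in 42.6% of the windows. TGANTCA, the AP-1 element, matched in neither gene and in 6.57% of the windows. The AQP3 window was 73.6% G or C, above 86.9% of the windows, and the TNC window 54.8%, above 41.7%. Each match is a string of letters and not a measured structure or binding site.

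AQP3 was lower with a6, higher with SAHA and near Ctrl with compound 1. The tables used here give 1 mean over the 6 libraries compared and a fold change, with no values per library. Each level below is thus a mean over 3 libraries, computed from the mean count and fold change of the authors' deposited table, and its error is that of the fold change. The mean normalized count of AQP3 was 97.1 with a6 and 202 in Ctrl. It was 434 with SAHA and 207 in Ctrl of that table. With compound 1 it was 199.6, against 207 in Ctrl. Thus the a6 level was the lowest and the SAHA level the highest, with compound 1 beside Ctrl. The tables were normalized separately. After a constant between tables was removed, the level in Ctrl from the a6, SAHA and compound 1 tables was 207 each time, beside 99.2 with a6, 433 with SAHA and 199.6 with compound 1.

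TNC followed the same order. Its mean normalized count was 487 with a6 and 825 in Ctrl. It was 1588 with SAHA and 844 in Ctrl of that table. With compound 1 it was 793, against 842 in Ctrl. On the common scale TNC stood at 497 with a6, 1585 with SAHA, 793 with compound 1 and 842 or 843 in Ctrl. In bulk RNA a lower level can mean less RNA per cell or fewer cells that make it, and these cannot be told apart.

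**Figure D1:**
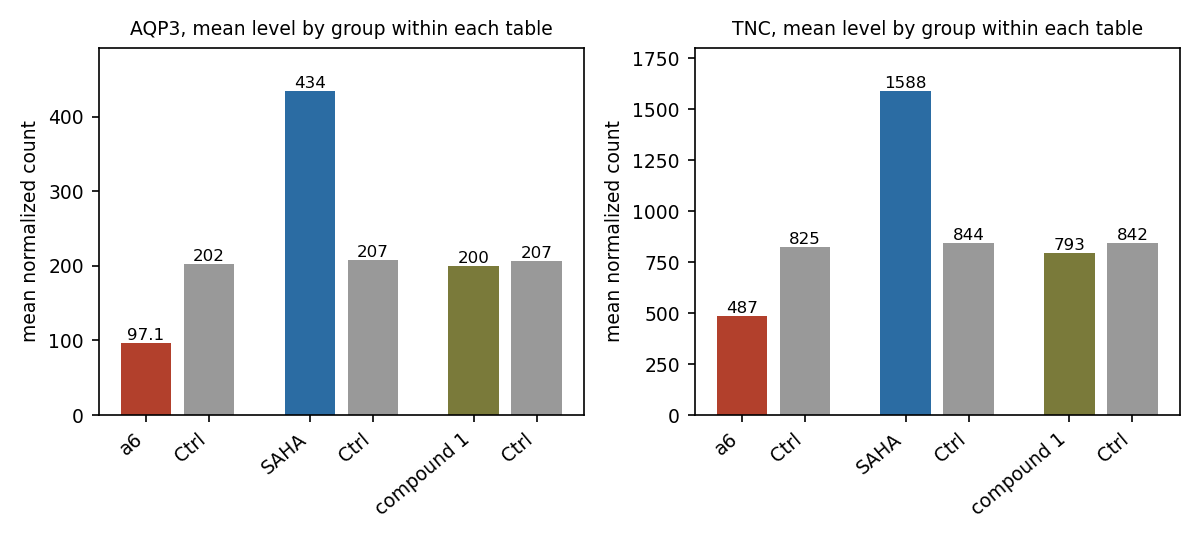
Mean normalized count (vertical axis, linear from 0) of AQP3 and TNC with each compound and in Ctrl of the same table. Each bar is the mean of 3 libraries computed from the authors' deposited tables, with no spread per library. For AQP3 the a6 bar is at 97.1 and the SAHA bar at 434, while the 3 Ctrl bars lie between 202 and 207.

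Per kilobase of merged exon, which allows levels of different genes to be set side by side, TNC was the higher of the pair in every group. TNC stood at 50.5 and AQP3 at 32.9 normalized counts per kilobase with a6, and at 85.6 and 68.6 in Ctrl of that table. With SAHA TNC stood at 165 and AQP3 at 147, and in Ctrl of that table at 87.6 and 70.3. The ratio of TNC to AQP3 was 1.54 with a6, 1.12 with SAHA and 1.22 with compound 1, against 1.25 in Ctrl of each table. No error can be given for these ratios. In the compound 1 table the Ctrl level of AQP3 per kilobase was above that of 73.4% of genes with a length, and that of TNC above 76.2%.

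The fold changes of AQP3 and TNC with a6 and with SAHA are what chose the genes, so they are given as a description and support nothing further. In the authors' deposited table for a6, the log2 fold change of AQP3 was -1.06 (standard error, SE, 0.31), which is 2.08-fold lower with a 95% interval from -1.66 to -0.46. For SAHA the authors' deposited table gives AQP3 at 1.07 (SE 0.32), or 2.09-fold higher, with an interval from 0.45 to 1.69. For TNC the authors' deposited table gives -0.76 (SE 0.24) for a6, or 1.69-fold lower, with an interval from -1.23 to -0.29. The authors' deposited table for SAHA gives TNC at 0.91 (SE 0.26), or 1.88-fold higher, with an interval from 0.41 to 1.42. The sizes of the opposite changes were thus close to each other, near 2-fold for AQP3 and somewhat under it for TNC.

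Of the 2 genes, 2 were past an adjusted p of 0.05 and higher with SAHA in the authors' DESeq2 Wald test, where 4.53% of the 18534 genes in that table were called higher. With a6, 0 of the 2 were past it, where 0.341% of 15255 genes were called lower. The adjusted p in the authors' deposited tables (DESeq2) was 0.0150 for AQP3 and 0.00933 for TNC with SAHA, and 0.0831 and 0.136 with a6. The unadjusted p in the authors' deposited a6 table (DESeq2) was 0.000590 for AQP3 and 0.00147 for TNC, so the a6 side of the opposite pattern rests on unadjusted values. The authors' lists of changed genes, which hold an unadjusted p under 0.05 with at least a 2-fold change, include AQP3 among the 248 genes lower with a6, 1.63% of those tested, and the 1327 higher with SAHA, 7.16%. TNC is in none of them, since its changes were under 2-fold. By size AQP3 had the 308th lowest of 15255 log2 fold changes with a6 and the 1957th highest of 18534 with SAHA. TNC ranked 763rd lowest with a6 and 2334th highest with SAHA.

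Compound 1 is the contrast that the choice of the genes did not use, although it shares the Ctrl libraries. In the authors' deposited table the log2 fold change of AQP3 with compound 1 was -0.05 (SE 0.29), and its unadjusted p was 0.864 (DESeq2). For TNC the authors' deposited table gives -0.09 (SE 0.22) and an unadjusted p of 0.689 (DESeq2). The adjusted p was 1.00 for both in the authors' deposited table (DESeq2), where 0% of 27126 genes were called and 54, or 0.199%, had an unadjusted p under 0.05. The 95% interval ran from -0.62 to 0.52 for AQP3 and from -0.51 to 0.34 for TNC. A change with compound 1 as large as the central values with a6 or SAHA lay outside these intervals for both genes, while smaller changes in either direction did not.

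The compounds were given at the same dose and time, so their effects can be set side by side, in 3 pairs. The log2 difference a6 minus SAHA was -2.13 for AQP3 (SE 0.44), with a 95% interval from -2.99 to -1.26, a 4.37-fold lower level. For TNC it was -1.67 (SE 0.35), with an interval from -2.36 to -0.98, or 3.19-fold lower. The pair was chosen for this difference, so no test is given. Over all genes in both tables a z test with Benjamini-Hochberg adjustment called 0.256% of 15255, taking the tables as independent, and 3.54% with an error correlation of 0.5. The difference a6 minus compound 1 was -1.01 (SE 0.42) for AQP3 and -0.67 (SE 0.32) for TNC. Its intervals ran from -1.84 to -0.18 for AQP3 and from -1.31 to -0.04 for TNC. The difference SAHA minus compound 1 was 1.12 (SE 0.43) for AQP3 and 1.00 (SE 0.34) for TNC. Its intervals ran from 0.27 to 1.96 for AQP3 and from 0.34 to 1.66 for TNC. These pairs reuse the a6 and SAHA values and are also given without a test. The standard errors above take the tables as independent, although they share the Ctrl libraries. With the error correlation of 0.5 the a6 minus SAHA interval of AQP3 was -2.74 to -1.51, and that of TNC -2.16 to -1.18.

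**Figure D2:**
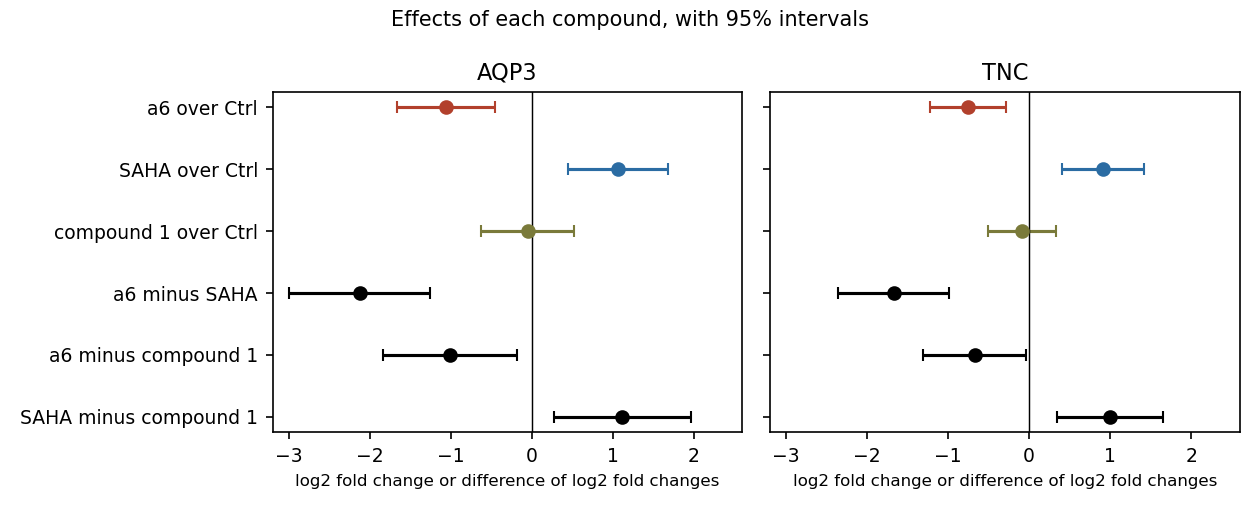
Log2 fold changes of AQP3 and TNC with each compound over Ctrl (coloured points) and differences between compounds (black points), with 95% intervals as bars, on a common horizontal axis. The a6 points lie at -1.06 and -0.76, the SAHA points at 1.07 and 0.91, and the compound 1 intervals span 0.

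The standard errors of both genes were close to those of genes with like mean counts. With a6 the standard error of AQP3, 0.31, stood beside a median of 0.32 over the 2479 genes whose mean count was within 1.5 times its own. With SAHA the value of 0.32 stood beside 0.31 over 2805 genes. TNC had 0.24 against a median of 0.25 with a6, and 0.26 against 0.28 with SAHA. The mean normalized counts were 655.9 for TNC and 149.8 for AQP3 in the authors' deposited a6 table, above 72.5% and 40.8% of its genes. TNC therefore had the smaller error in each comparison.

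Opposite effects of a6 and SAHA were rare at the thresholds used. Of the 15255 genes in both tables, 58 were past an adjusted p of 0.05 in both and 0 of these had opposite signs (DESeq2, adjusted p). At an unadjusted p under 0.05 in both tables there were 600 genes, of which 13 were lower with a6 and higher with SAHA, and 1 was higher with a6 and lower with SAHA. AQP3 and TNC are 2 of the 13. Taken singly at that threshold, 4.35% of the 15255 genes in the a6 table were lower with a6. In the SAHA table, which holds more genes, 10.2% of 18534 were higher with SAHA. Since both tables use the same Ctrl libraries, the signs of the 2 comparisons are not independent. With at least a 2-fold change as well, 5 genes remained in the first direction, named here after their values were seen: AQP3, the keratin gene KRT86, RAB17, MAOB and the clone-named AC037198.1. In the authors' deposited tables RAB17, a small GTPase of epithelial vesicle traffic, was at -1.25 with a6 and 1.68 with SAHA. MAOB, the mitochondrial monoamine oxidase B, was at -1.23 with a6 and 1.78 with SAHA in the authors' deposited tables. KRT86, a hair keratin of a family with similar sequences and so uncertain, was at -1.38 with a6 and 1.23 with SAHA in the authors' deposited tables. AQP3 had the highest mean count of the 5 with a6, 149.8, against 19.6 to 43.0 for the others. Among the other 8 of the 13 were TNC, LOXL4, AHNAK2 and PPL.

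**Figure D3:**
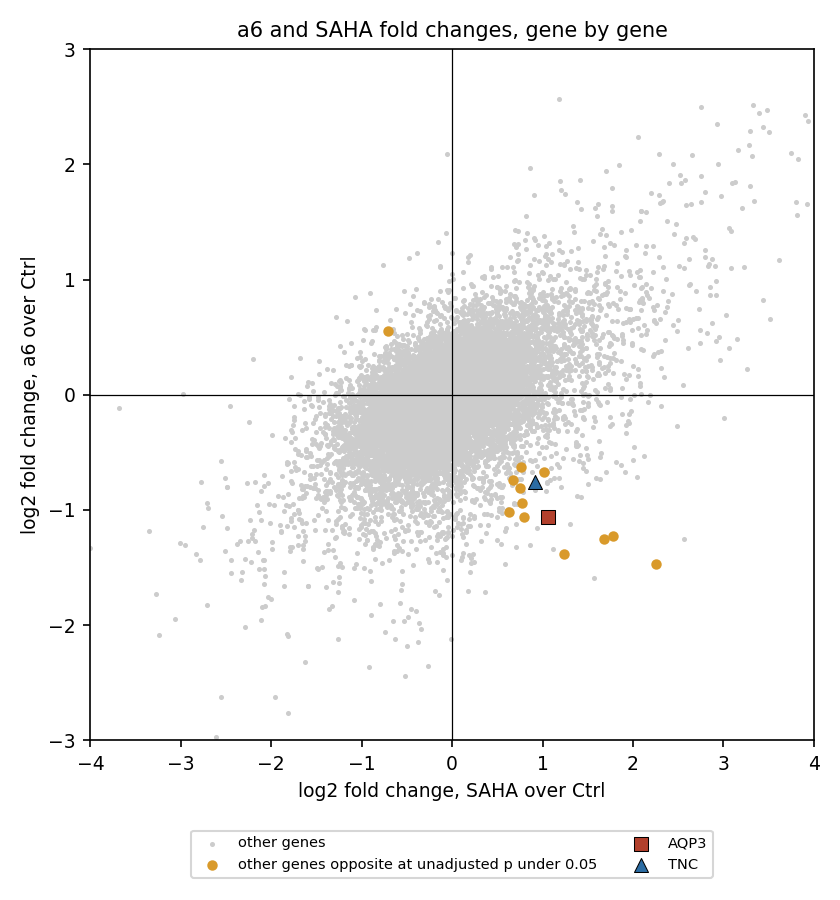
Log2 fold change with a6 over Ctrl (vertical) against SAHA over Ctrl (horizontal) for 15255 genes, both from comparisons that share Ctrl libraries, with 14 genes outside the axes. AQP3 and TNC lie in the lower right quadrant, at -1.06 and -0.76 with a6, among the 13 genes that pass an unadjusted p under 0.05 in both tables with a6 lower and SAHA higher.

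The genes nearest in pattern were taken as those with the smallest Euclidean distance over the 3 log2 fold changes, among the 11696 genes whose mean count reached 50 in every table. This distance rests on 3 values per gene that share the Ctrl libraries. The a6 and SAHA values among them are also what chose AQP3 and TNC. The nearness of AQP3 and TNC to each other is thus partly set by that choice and was not tested. The gene nearest to AQP3 was TNC, at a distance of 0.34. It was followed by ICAM4, a red cell adhesion molecule, at 0.37 and AHNAK2, a very large scaffold protein, at 0.44. TNFSF10, the death ligand TRAIL, and PPL, the junctional plaque protein periplakin, were both at 0.45. The genes nearest to TNC were AHNAK2 at 0.22, PPL, FAM131C and SORL1 between 0.24 and 0.25, and ICAM4 at 0.27. AQP3 was the 8th nearest to TNC, and the nearest to it, at 0.38, when the distance was taken over Wald statistics. PPL was at -0.67 (SE 0.29) with a6 and at 1.02 (SE 0.31) with SAHA in the authors' deposited tables, where it passed with SAHA (DESeq2, adjusted p = 0.0209). AHNAK2 was at -0.81 (SE 0.29) with a6 and 0.75 (SE 0.31) with SAHA in the authors' deposited tables, and passed in neither (DESeq2, adjusted p = 0.263 with a6 and 0.143 with SAHA).

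The aquaporins other than AQP3 were scarce in these cells. In Ctrl of the compound 1 table AQP3 stood at 70.0 normalized counts per kilobase, against 9.47 for AQP11, 8.57 for AQP5, 6.92 for MIP and 3.67 for AQP1. AQP6 and AQP7 were at 0.558 and 0.457 and AQP2 at 0.0775. With no spread per library, whether neighbours in this order differ could not be tested. AQP7 has near-identical copies in the genome, so its value is uncertain. Of 14 aquaporin genes listed, 4 were measured with a6, 6 with SAHA and 8 with compound 1. With a6, 0 rose and 0 fell, where 0.243% and 0.341% of all genes in that table did, and the median log2 fold change of the 3 measured members other than AQP3 was -0.42 beside -0.03 over all genes. With SAHA 2 rose and 0 fell, AQP3 among them, which was chosen for being higher with SAHA. Of the 5 members other than AQP3, 1 rose and 0 fell, beside 4.53% and 3.02% of all genes. Their median log2 fold change was 0.11 beside -0.01. With compound 1, 0 passed.

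The 2 aquaporins that passed with SAHA were AQP3 and AQP11, a channel of intracellular membranes. AQP11 was at 58.5 with SAHA and 22.7 in Ctrl in mean normalized count, a log2 fold change of 1.37 (SE 0.46) in the authors' deposited table (DESeq2, adjusted p = 0.0436). With a6 AQP11 was at 16.6 and in Ctrl at 22.2, a log2 fold change of -0.42 (SE 0.61) in the authors' deposited table (DESeq2, adjusted p = 0.989). AQP5, a water channel of glands and airways, was at -1.15 (SE 0.80) with a6 and at -0.05 (SE 0.63) with SAHA in the authors' deposited tables. MIP, the lens aquaporin, was at 0.24 (SE 0.50) with a6 and at -0.83 (SE 0.57) with SAHA in the authors' deposited tables. AQP1 and AQP7, measured with SAHA and compound 1, passed in neither comparison. Below a mean count of 9.31 a gene is absent from the a6 table, and below 2.44 from the SAHA table, so a gene near 0 in Ctrl could enter only where the compound raised it.

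Aquaporin 3 carries glycerol and hydrogen peroxide. Of 44 measured genes listed as making or using these, 2 passed with SAHA in either direction, or 4.55%. Over all genes 1399 of 18534 passed in either direction, with 4.53% higher and 3.02% lower. Of 24 genes of glycerol and triglyceride handling, 23 were measured with a6 and 24 with SAHA. With a6, 0 rose and 0 fell, beside 0.243% and 0.341% of all genes, and at those shares 0 among 23 tells little. With SAHA 0 rose and 1 fell. The medians were -0.04 with a6 and 0.04 with SAHA, beside -0.03 and -0.01 over all genes. The member that fell was GPAT2, a glycerol phosphate acyltransferase, at -0.99 (SE 0.30) in the authors' deposited SAHA table (DESeq2, adjusted p = 0.0169). Of 28 sources and sinks of hydrogen peroxide, 20 were measured with SAHA, of which 1 rose and 0 fell. GPX3, a secreted glutathione peroxidase, rose with SAHA by 1.14 (SE 0.32) in the authors' deposited table (DESeq2, adjusted p = 0.00762).

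TNXB was the other tenascin measured, of 4 in the family. It stood at 17.5 normalized counts per kilobase with a6 and 22.0 in Ctrl, and at 18.4 with SAHA and 22.5 in Ctrl. Its log2 fold changes in the authors' deposited tables were -0.33 (SE 0.41) for a6, -0.29 (SE 0.41) for SAHA and -0.20 (SE 0.56) for compound 1, none past the threshold. TNXB has a near-identical partial copy in the genome, so its value is uncertain.

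Among receptors of tenascin-C, ITGA7 rose with both a6 and SAHA. Of 14 listed, 10 were measured with a6, of which 1 rose and 0 fell, beside 0.243% and 0.341% of all genes. With SAHA 11 were measured, of which 3 rose and 0 fell, beside 4.53% and 3.02%. Of the 10 members found in every table, 2 rose with SAHA, and the medians were -0.16 with a6 and 0.46 with SAHA. ITGA7, an integrin alpha subunit, was at 69.3 with a6 and 21.7 in Ctrl in mean normalized count, and at 149.8 with SAHA and 22.2 in Ctrl. In the authors' deposited tables its log2 fold change was 1.68 (SE 0.46) for a6 (DESeq2, adjusted p = 0.0480) and 2.75 (SE 0.42) for SAHA (adjusted p = 1.31e-08). ITGB3, the integrin beta 3 subunit, rose with SAHA by 1.04 (SE 0.35) in the authors' deposited table (DESeq2, adjusted p = 0.0397) and was at -0.45 (SE 0.37) with a6 in the authors' deposited table. CNTN1, contactin 1, was at 37.7 with SAHA and 0.193 in Ctrl in mean normalized count and passed in the authors' deposited SAHA table (DESeq2, adjusted p = 1.20e-06). At that Ctrl level CNTN1 could enter the SAHA table only by being higher with SAHA, and it has no row in the a6 table. The more abundant receptor genes, chosen after their values were seen, were ITGB1, EGFR, SDC4 and ANXA2, which lay between -0.21 and -0.10 with a6 and between 0.09 and 0.44 with SAHA in the authors' deposited tables, and none passed.

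Some matricellular genes and matrix genes whose products bind tenascin-C rose with SAHA. Of 27 listed, 11 were in all 3 tables, of which 3 rose and 0 fell with SAHA, beside 4.53% and 3.02% of all genes. With a6, 0 of the 11 passed, beside 0.243% and 0.341%. The median log2 fold change of these 11 was -0.18 with a6 and 0.48 with SAHA, beside -0.03 and -0.01 over all genes. The SAHA table holds 17 members, of which 6 rose, but some of them are near 0 in Ctrl and could enter it only by being higher with SAHA. BCAN, the proteoglycan brevican, was at 103 with SAHA and 12.1 in Ctrl in mean normalized count, and rose in the authors' deposited table (DESeq2, adjusted p = 6.07e-09). With a6 BCAN was at 1.84 (SE 0.51) in the authors' deposited table (DESeq2, adjusted p = 0.0565). CCN2, a connective tissue growth factor, rose with SAHA by 1.20 (SE 0.29) in the authors' deposited table (DESeq2, adjusted p = 0.00166). CCN5 and THBS2, a thrombospondin, rose with SAHA by 2.38 (SE 0.52) and 2.27 (SE 0.54) in the authors' deposited table (DESeq2, adjusted p = 0.000249 and 0.00113). FBLN5, a fibulin of elastic fibres, was one of the members near 0 in Ctrl, at 17.3 with SAHA and 0.379 in Ctrl in mean normalized count, and passed in the authors' deposited table (DESeq2, adjusted p = 0.00340). FN1, fibronectin, also chosen after its values were seen, was at -0.18 (SE 0.22) with a6 and at 0.27 (SE 0.28) with SAHA in the authors' deposited tables.

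Of 10 proteases reported to cleave tenascin-C, 5 were measured with a6 and 6 with SAHA. With a6, 0 passed, beside 0.243% of all genes higher and 0.341% lower. With SAHA 2 rose and 0 fell, beside 4.53% and 3.02%. MMP1, interstitial collagenase, was at 1250.3 with SAHA and 448 in Ctrl in mean normalized count, a log2 fold change of 1.48 (SE 0.42) in the authors' deposited table (DESeq2, adjusted p = 0.00962). MMP3, stromelysin 1, was at 30.5 with SAHA and 1.37 in Ctrl and passed in the authors' deposited table (DESeq2, adjusted p = 0.000127). At that Ctrl level MMP3 could enter the SAHA table only by being higher with SAHA, and it has no row in the a6 table. Over genes in all 3 tables MMP1 alone was counted.

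Of 31 reported upstream regulators of TNC, 27 were measured with a6, of which 0 passed, beside 0.243% of all genes higher and 0.341% lower. With SAHA 28 were measured, of which 2 rose and 2 fell, beside 4.53% and 3.02%. The medians were -0.20 with a6 and 0.00 with SAHA. TGFBR2, a receptor of transforming growth factor beta, rose with SAHA by 1.29 (SE 0.31) in the authors' deposited table (DESeq2, adjusted p = 0.00111). IL1A, interleukin 1 alpha, rose with SAHA by 1.92 (SE 0.51) in the authors' deposited table (DESeq2, adjusted p = 0.00522). PDGFA, a platelet-derived growth factor, and the receptor NOTCH1 fell with SAHA, at -1.27 (SE 0.37) and -0.93 (SE 0.27) in the authors' deposited table (DESeq2, adjusted p = 0.0144 and 0.0128).

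**Figure D4:**
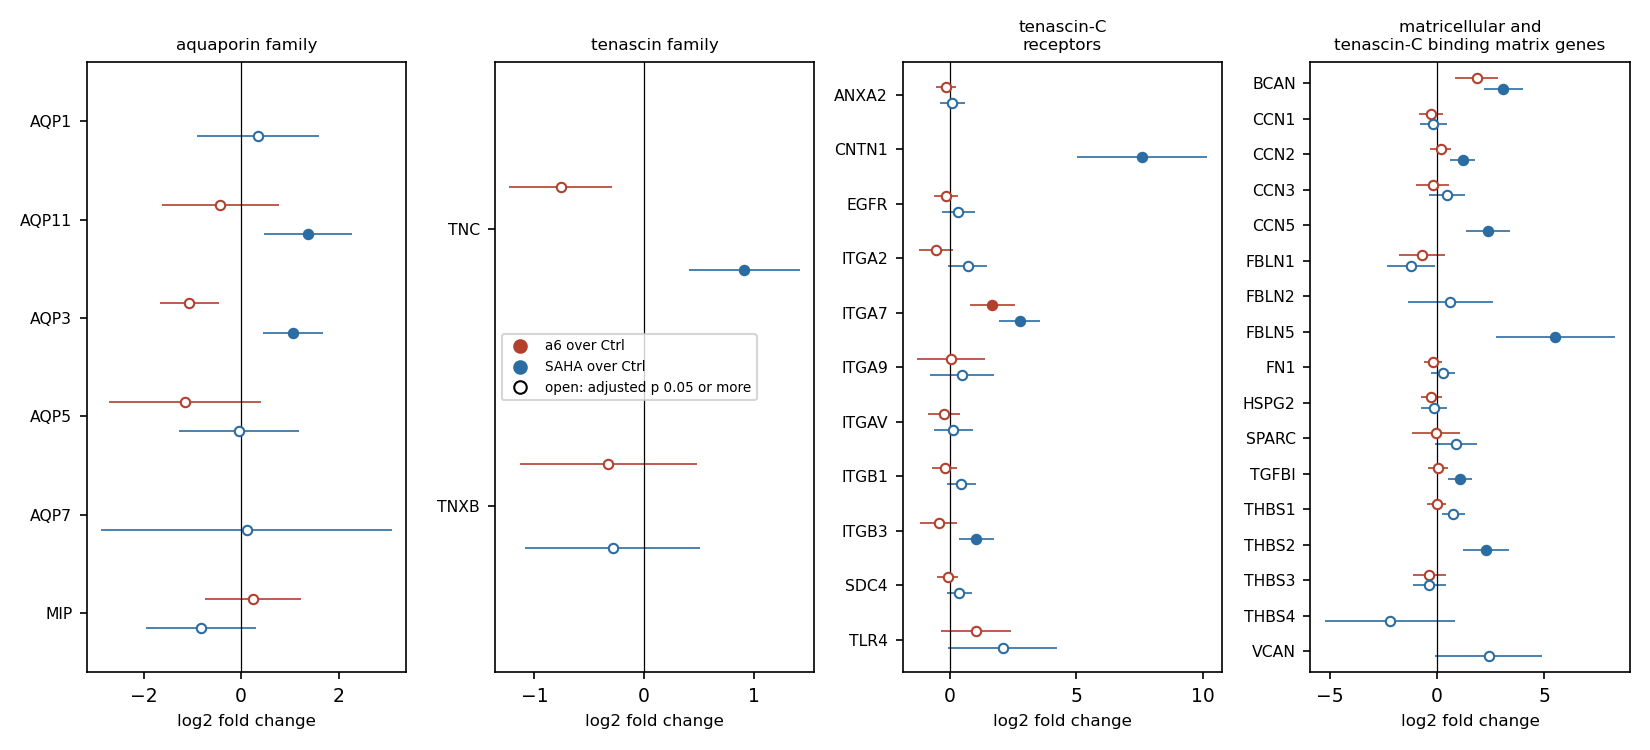
Log2 fold changes with a6 and SAHA over Ctrl (horizontal axes, which differ in range) for the measured aquaporins, tenascins, tenascin-C receptors and matricellular genes, with 95% intervals as bars. Filled points passed an adjusted p under 0.05. AQP3 and TNC have the a6 point left of 0 and the SAHA point right of it, while ITGA7 has both right of 0, at 1.68 and 2.75.

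Of 12 neighbours on chromosome 9, 0 passed with a6, beside 0.243% of all genes higher and 0.341% lower. With SAHA 4 rose, TEX48 among them, beside 4.53%. For each gene the 3 measured protein-coding genes on either side were read, among genes in all 3 tables. Around AQP3 these were BAG1, CHMP5, NFX1, NOL6, PRSS3 and UBE2R2, whose log2 fold changes in the authors' deposited tables lay between -0.32 and 0.62 with a6. With SAHA they lay between -0.73 and 1.15 in the authors' deposited table, where PRSS3, mesotrypsin, rose (SE 0.38; DESeq2, adjusted p = 0.0347). NOL6, a ribosome biogenesis protein whose lower end is 20.3 kb from that of AQP3, was at 0.62 (SE 0.26) with a6 and at 0.45 (SE 0.27) with SAHA in the authors' deposited tables. Around TNC, TNFSF15, a cytokine of the tumour necrosis factor family, rose with SAHA by 3.23 (SE 0.35) in the authors' deposited table (DESeq2, adjusted p = 7.87e-17). With a6 TNFSF15 was at 1.11 (SE 0.37) in the authors' deposited table (DESeq2, adjusted p = 0.205). TEX48 and ASTN2 also passed with SAHA, at 2.75 (SE 0.73) and 1.34 (SE 0.39) in the authors' deposited table (DESeq2, adjusted p = 0.00472 and 0.0141). TMEM268, PAPPA and TRIM32 passed in neither comparison. With a6 the unadjusted p in the authors' deposited table (DESeq2) was under 0.05 for 3 of the 12, NOL6, TEX48 and TNFSF15, all higher. No share of all genes higher with a6 at that threshold is given here, so nothing can be read from the count of 3. TEX48 had a mean count of 12.8 in the a6 table and 6.80 in the compound 1 table. The lowest in the a6 table was 9.31, so TEX48 may have entered it, and with it the 12 neighbours, only by being higher with a6. The count of 4 that rose with SAHA includes TEX48 and is limited in the same way.

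**Figure D5:**
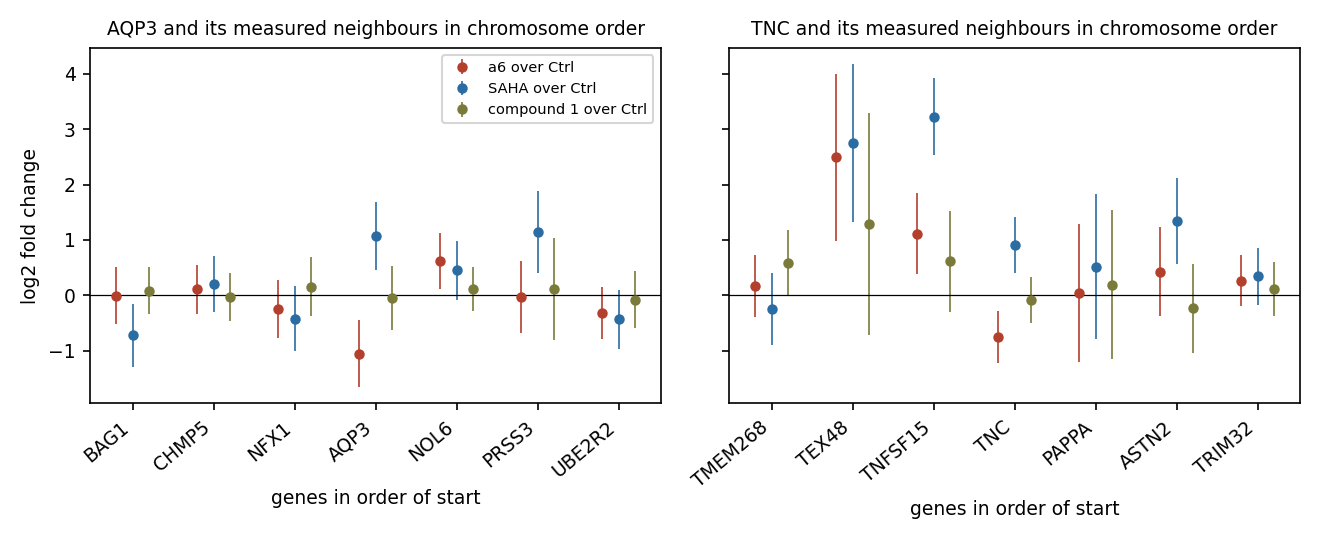
Log2 fold changes over Ctrl (vertical axis) of AQP3, TNC and the 3 nearest protein-coding genes on each side that are in all 3 tables. Genes are in order along chromosome 9 and not to scale, with 95% intervals as bars. Genes missing from any of the tables are skipped. The a6 point lies lowest at AQP3 and at TNC, while TNFSF15 beside TNC is at 3.23 with SAHA.

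The authors' deposited lists of G4-related genes give AQP3 a G4 number of 2, both in the list named for genes lower with a6 and in that named for genes higher with SAHA. A number of 2 is the median of each list and is given to 84 of 326 genes in the a6 list and 169 of 723 in the SAHA list, AQP3 among them. TNC has no entry in the lists used here, so no G4 number of TNC was read. How genes entered these lists is not stated in the labels. Of the 326 names in the a6 list, 118 (36.2%) are among the 248 changed genes lower with a6, AQP3 included, which is 47.6% of those 248. The sources used here do not say in which region G4s were counted.

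The labelled cell type was checked against markers. In Ctrl of the compound 1 table the mean normalized count was 21100 for VIM and 20896 for AXL, mesenchymal genes, and 8246 for CD44. ZEB1, also a mesenchymal gene, was much lower, at 157. ESR1 and PGR, the oestrogen and progesterone receptors, were at 0.660 and 0.337, and CDH1, E-cadherin, at 5.06. EPCAM was at 172 and ERBB2 at 2098, so these epithelial and HER2 transcripts were present. Per kilobase EPCAM stood at 68.1 and ZEB1 at 18.2, so the markers were mixed. The 13 mitochondrially encoded genes, read as a sign of RNA quality, had medians of -0.01 with a6, 0.06 with SAHA and -0.23 with compound 1, where 0 of 13 were above 0. With each compound 0 were past the threshold, and their part in the results was not tested. Depth per library is unknown here. The median mean count over genes was 231 in the a6 table, 147 in the SAHA table and 23.0 in the compound 1 table. The lowest mean count in these tables was 9.31, 2.44 and 0.145, so the medians cannot be read as depth.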

How the data were processed

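RNA of 12 MDA-MB-231 libraries was sequenced. Per the submitters' processing notes, cutadapt, DESeq2 and GRCh38 (hg38) were used. The sources used here name no aligner, counter or version. The 3 deposited comparison tables give, per the file headers, the authors' mean normalized count over 6 libraries (a signal), the log2 fold change over Ctrl with its standard error, the Wald statistic (a score), the p-value and the adjusted p-value. A G4 number for each gene (a score) stands in the authors' deposited G4-related lists. No column of values per library was used (0 columns), so depth per library is unknown.

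Group levels were computed from the mean count and fold change for equal groups. Lengths and positions came from GENCODE 29, which gave an exon length to 96.4% of a6, 95.6% of SAHA and 93.8% of compound 1 genes by symbol, and upstream sequence from RefSeq. The authors' DESeq2 test at an adjusted p under 0.05 was used as deposited. Differences between compounds were set against their combined standard error in a z test (two-sided, Benjamini-Hochberg adjusted), tested on simulated data (Python 3.11.15, scipy 1.17.1). AQP3, TNC, the 14 gene lists and the motifs were chosen with earlier results of these data known. Named genes were all measured aquaporins and tenascins, up to 5 called members of each other list and table, the 5 nearest by distance, and 3 neighbours a side; other names were chosen after their values were seen. FN1 and the PDGF receptor genes are in 2 lists. Alternatives were other thresholds, the authors' rule, centring, a mean count of at least 10, genes in all 3 tables, an error correlation of 0.5 and distances of Wald statistics. The a6 result for the hydrogen peroxide list is not reported here. List counts over members in every table kept the authors' adjusted p. These counts, and the counts and medians without AQP3, were added after seeing the data.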

Additional observations from a re-analysis of the deposited data

How the results depend on the processing

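No paired analysis was possible because the tables hold no values per library, and for the same reason no replicate could be left out. AQP3 at 1.07 with SAHA missed an adjusted p of 0.01, and at -1.06 with a6 it passed the authors' rule of an unadjusted p under 0.05 and 2-fold, while TNC at 0.91 with SAHA missed that rule and a 2-fold limit. At an adjusted p under 0.01, 12 genes were higher and 24 lower with a6, and 517 and 303 with SAHA. By the authors' rule these were 150 and 248 with a6, 1327 and 609 with SAHA, and 23 and 20 with compound 1. With an error correlation of 0.5, which the shared Ctrl libraries imply, calls were 238 higher and 302 lower for a6 minus SAHA, 19 and 25 for a6 minus compound 1, and 488 and 499 for SAHA minus compound 1. Genes lower with a6 and higher with SAHA numbered 5 by the authors' rule and 13 at an unadjusted p under 0.05, an alternative added after seeing the data, which gave 1 the other way. Centring on the median moved no call of AQP3 or TNC. Of 504 counts over gene lists under alternatives, 474 stayed within 1.5 times. By Wald statistics 2 of the 5 genes nearest to TNC were kept. Unknown depth and low means limit the scarce aquaporins.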

Other observations

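Epithelial and mesenchymal genes gave a mixed picture beside AQP3 and TNC. Of 18 epithelial genes 12 were measured with a6, of which 1 rose and 0 fell, beside 0.243% and 0.341% of all genes. With SAHA 15 were measured, of which 2 rose and 0 fell, beside 4.53% and 3.02% of all genes. CGN, the tight junction protein cingulin, rose with both, at 2.33 (standard error 0.37) with a6 and 3.44 (0.36) with SAHA on the log2 scale in the authors' deposited tables. TJP3, a junction scaffold, rose with SAHA, at 2.00 (0.48), and was at -0.56 (0.59) with a6 in the authors' deposited tables. Of 19 mesenchymal genes 17 were measured, of which 0 rose and 3 fell with a6, and 2 rose and 3 fell with SAHA, beside the same shares of all genes. TAGLN, an actin-binding protein, fell with both, at -2.10 (0.28) with a6 and -1.82 (0.32) with SAHA in the authors' deposited tables. LOX and COL5A1, a collagen cross-linking enzyme and a collagen chain, fell with a6, at -1.18 (0.24) and -0.93 (0.22) in the authors' deposited table. COL6A1, another collagen chain, and FOSL1, an AP-1 subunit, fell with SAHA, at -0.97 (0.31) and -0.90 (0.28), while COL6A3 and CDH2, N-cadherin, rose, at 1.78 (0.29) and 3.17 (0.72) in the authors' deposited table.

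Among 12 fibroblast markers, a cell type known for tenascin-C, 4 were measured with a6, of which PI16 fell, at -2.18 (0.45) in the authors' deposited table. With a6, 0.243% of all genes were higher and 0.341% lower. The 4 did not pass with SAHA (DESeq2), where 4.53% of all genes were higher and 3.02% lower. LUM, lumican, is in the SAHA table and not in the a6 table, which its level in Ctrl allowed only because it was higher with SAHA, at a mean normalized count of 49.3 with SAHA and 0.378 in Ctrl (the authors' deposited table, DESeq2, adjusted p = 7.58e-06). Of 21 keratinocyte differentiation genes, 4 were measured with a6, of which 0 passed (DESeq2), and 0 of these passed with SAHA. At the shares of all genes above, a count of 0 among 4 genes tells little. GRHL3, a transcription factor of the skin barrier, likewise entered the SAHA table only by being higher with SAHA, at a mean normalized count of 9.43 with SAHA and 0.190 in Ctrl (the authors' deposited table, DESeq2, adjusted p = 0.0114). The part of these marker genes in the levels of AQP3 and TNC was not tested.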
